A study of Mus musculus with 2 samples.

Results

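Natural killer (NK) cells of the bone marrow were compared with NK cells of the spleen, both from fasted mice. The members were the cells that the authors' hashtag classification gave to a single population, with a population name starting with BM_Fast or Spleen_Fast. There were 136 such cells from bone marrow and 1391 from spleen, together 1527 of the 7479 cells assigned to a single population in the series and of 13118 cells in its matrix. The C57BL/6 mice were 12 weeks old and, per the labels, had received MC38 cells (a mouse colon carcinoma line) under the skin. They were then fed ad libitum or put through cycles of fasting. Cells were sorted as lineage-negative, NK1.1+ and CD49b+, marked with 1 hashtag antibody per population, and run together in 1 droplet lane, in which each captured transcript is counted by its unique molecular identifier (UMI). The tag list also names ad libitum and refed populations of both tissues, of which 575 and 337 bone marrow cells and 1804 and 1476 spleen cells are used below for side-by-side values. The sources used here do not state the hours of fasting, the number of mice behind a hashtag or the members of the lineage panel.

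NK cells are innate lymphocytes that kill stressed, infected and transformed cells with granules of perforin and granzymes and that secrete interferon gamma and chemokines. They arise in bone marrow, where immature CD27+ cells divide, and then pass through stages at which CD11b (encoded by Itgam), KLRG1 and the egress receptor S1PR5 appear while CD27 is lost. Mature cells leave the marrow and make up most NK cells of the circulation and the spleen. The factors T-BET and ZEB2 drive the late stages, and EOMES and TCF1 (encoded by Tcf7) act in earlier ones.

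Each population is 1 sample, so the differences could not be set against replicates and carry no p-value. UMIs of a gene were summed over the cells of a population and scaled to the population's total (CPM, the usual counts-per-million unit), and a difference is the log2 ratio of CPM + 5, bone marrow over spleen. The interval in brackets after a log2 ratio is its 95% binomial interval, which covers counting error only and neither the spread between cells nor that between mice. The fasted bone marrow gave 736125 UMIs and the fasted spleen 5348878, with medians of 4782.5 and 3462 UMIs and of 1721 and 1415 genes per cell. Ribosomal protein and mitochondrial genes took 33.7% of the UMIs in bone marrow and 26.7% in spleen. A level in a sum of cells does not tell fewer cells with a transcript from less transcript per cell, so shares of cells are given beside the main levels.

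Both populations carried the transcripts that define NK cells. All 10 NK marker genes had UMIs in both, and their summed level was 12963 CPM in bone marrow and 28033 CPM in spleen. The granzyme gene Gzma made up the largest part of this gap, at 4691 against 15198 CPM. The receptor gene Klrb1c stood at 600 against 742 CPM, so the sums do not measure a share of NK cells. Eomes, a transcription factor of NK cells, stood at 219 against 221 CPM (log2 ratio -0.01, -0.25 to 0.22), and Ncr1, the activating receptor NKp46, at 566 against 1043 CPM (-0.87, -1.02 to -0.73). The list of group 1 innate lymphoid cell (ILC1) markers summed to 710 CPM in bone marrow and 220 CPM in spleen. Most of both sums came from Ltb (428 against 130 CPM), Il7r (136 against 34.4 CPM) and Tcf7 (89.7 against 42.8 CPM). These genes are also on the list of immature NK genes used below. The ILC1 markers Itga1 (1.36 against 1.68 CPM) and Cxcr6 (2.72 against 0.93 CPM) were near 0 in both, so the sums do not measure a share of ILC1 cells. Markers of T cells summed to 1246 and 625 CPM, with Cd4, Cd8a, Cd8b1 and Cd6 at 0 in bone marrow and Cd8b1 at 0 in spleen. Neutrophil markers summed to 11058 and 48.2 CPM and monocyte or macrophage markers to 909 and 111 CPM, and the cells behind these sums are described further on. B, dendritic, erythroid, basophil or mast, progenitor, platelet and ILC2 lists each summed to 217 CPM or less in both populations once 7 cells of other types, defined further on, were left out of each.

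Of 2855 genes that reached 50 CPM in at least 1 of the populations, 50 (1.75%) were at least 2-fold higher in bone marrow and 44 (1.54%) at least 2-fold lower. Such genes are named called higher and called lower in what follows, and the counting interval of each left out 0. The median log2 ratio of all 2855 genes was -0.10, with 1084 genes above 0 and 1771 below. Among the calls, 29 higher and 40 lower genes kept their call both without cells that carried markers of another cell type and without the highest cell of each gene. The higher genes that kept their call were led by genes of mitosis, by subunits of the T cell receptor complex and by genes of immature NK cells. The lower genes were led by genes of mature NK cells and of their granules and chemokines. With totals that leave out ribosomal protein and mitochondrial genes, the median of all genes moved to 0.04 and the calls to 96 higher and 43 lower, so that 69.1% of calls were higher in place of 53.2%. Removing the highest cell of each gene took the calls to 26 higher and 54 lower, with the median of all genes at -0.15.

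**Figure D1:**
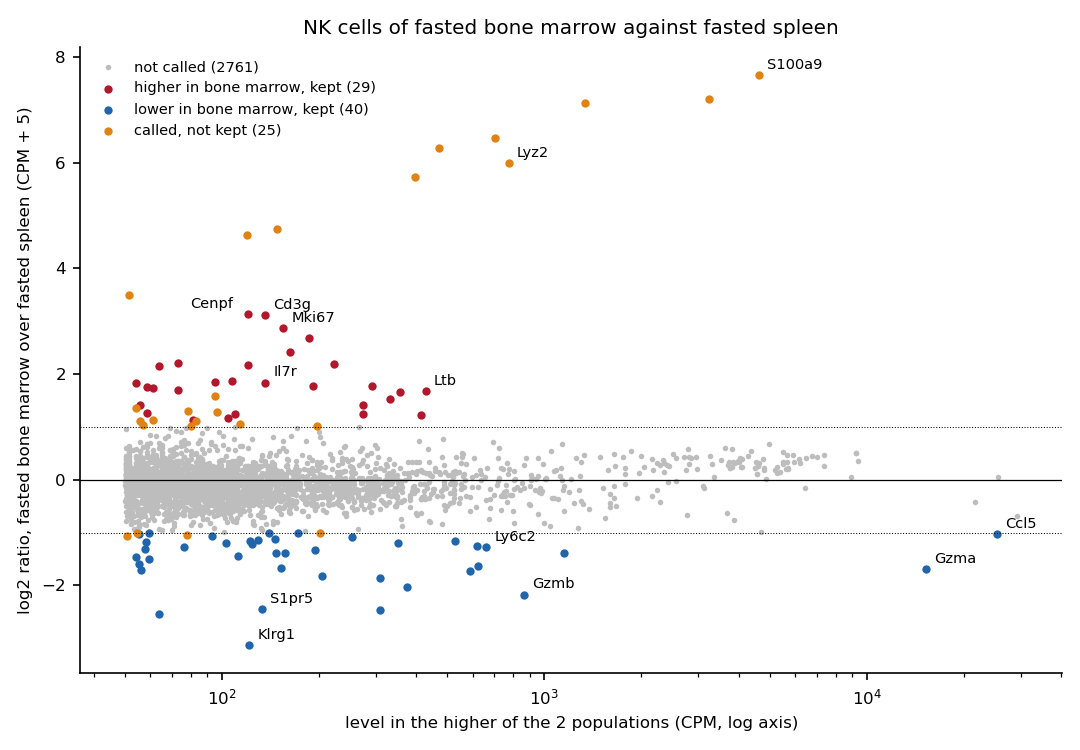
Each point is 1 of the 2855 measured genes, with its level in the higher population (CPM, log axis) against the log2 ratio of fasted bone marrow over fasted spleen; dotted lines mark a 2-fold difference. Red and blue points are the 29 higher and 40 lower genes that kept their call, and orange points, with S100a9 at 7.65 and Lyz2 at 5.99 among the highest, are the 25 that did not.

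Genes of mature NK cells were lower in bone marrow. Of the 12 genes on the list, 10 were measured and all 10 had a ratio below 0. Of these, 8 were called lower and 0 higher, and the median log2 ratio was -1.70 against -0.10 for all genes. Klrg1, Kcnj8 and S1pr5 passed the 50 CPM minimum through the spleen alone, so these values describe the measured members and not the list. At a minimum of 20 CPM in any fasted, ad libitum or refed population of either tissue, all 12 members entered. All 12 were below 0, 9 were at least 2-fold lower, and the median was -1.70. Klrg1, an inhibitory lectin-like receptor of late NK cells, had the lowest ratio of the genes that kept their call: 9.51 CPM in bone marrow and 122 CPM in spleen (-3.13, -3.85 to -2.36), from 7 UMIs in 7 of 136 cells against 651 UMIs in 400 of 1391 cells. S1pr5, the sphingosine-1-phosphate receptor with which NK cells leave the marrow, stood at 20.4 against 133 CPM (-2.45, -3.08 to -1.83). Zeb2, a transcription factor that promotes terminal maturation, stood at 88.3 against 374 CPM (-2.02, -2.38 to -1.68), and Itgam at 57.1 against 157 CPM (-1.38, -1.82 to -0.97). Cma1, a mast cell chymase gene that is also expressed by mouse NK cells, stood at 51.6 against 308 CPM (-2.47, -2.92 to -2.04), and Kcnj8, a potassium channel gene, at 6.79 against 63.9 CPM (-2.55, -3.27 to -1.71). Irf8, a transcription factor, was also called lower (149 against 351 CPM, -1.20). It fell under the 2-fold line without cells of other types at the 0.2% setting (-0.96) and with the authors' clusters weighted equally (-0.87). Tbx21, which encodes T-BET, missed the 2-fold line at 78.8 against 129 CPM (-0.68, -1.06 to -0.31), as did Spn (-0.51). Cx3cr1, a chemokine receptor of circulating mature cells, did not reach 50 CPM and had 1 UMI in bone marrow (1.36 CPM) against 139 in spleen (26.0 CPM).

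Klrg1 lies at chr6:122270596-122282882, S1pr5 at chr9:21242912-21248443 and Zeb2 at chr2:44983632-45117395, all on the minus strand, in the mouse GENCODE annotation of GRCm38, and Gzmb, described further on, at chr14:56258838-56262260. All 4 are protein-coding genes.

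The same contrast was seen in shares of cells. Every cell was thinned to 1500 UMIs, which left 116 bone marrow and 1290 spleen cells. Klrg1 then had a UMI in 1.59% of bone marrow cells (0.168 to 5.88, Clopper-Pearson interval) and in 15.7% of spleen cells (13.8 to 17.8). At the cells' own depth the shares were 5.15% and 28.8%. S1pr5 was found in 4.30% (1.41 to 9.76) and 20.02% (17.9 to 22.3), and Zeb2 in 12.9% (7.38 to 20.4) and 41.4% (38.6 to 44.1). These shares come from the same cells as the ratios for which the 3 genes were named, so they give no separate support. Their intervals treat cells as independent and do not cover the spread between mice. No cell type without these genes was set beside them, so the part of free RNA in the shares was not tested. Cells with a UMI of Cd27 but none of Itgam made up 23.6% of bone marrow cells (16.3 to 32.4) and 11.6% of spleen cells (9.94 to 13.5). Cells with Itgam but no Cd27 made up 6.72% (2.91 to 12.9) and 18.4% (16.3 to 20.6). Both genes were seen in 2.02% and 2.45% and neither in 67.6% of the cells of each tissue, so most cells could not be placed at this depth. These classes are ranges of detection in RNA and not the CD27 and CD11b stages of flow cytometry.

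**Figure D2:**
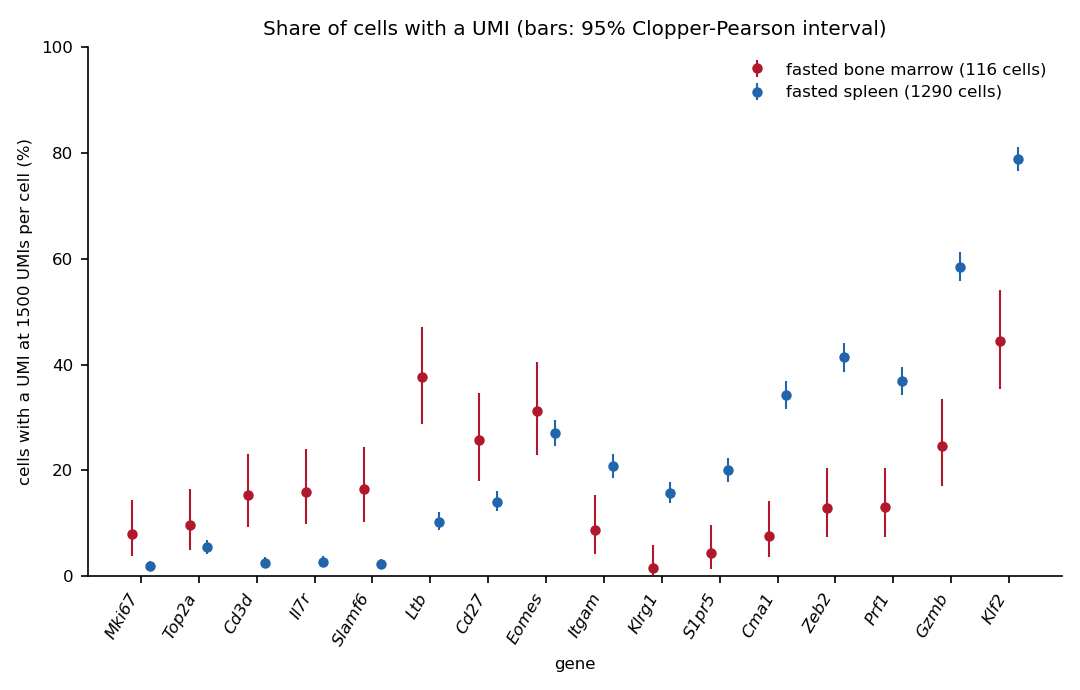
Percent of cells with at least 1 UMI of a gene after thinning to 1500 UMIs per cell, for 116 fasted bone marrow cells (red) and 1290 fasted spleen cells (blue); points are expected shares and bars 95% Clopper-Pearson intervals. Ltb (37.6% against 10.3%) is found in more bone marrow cells, Gzmb (24.6% against 58.5%) in more spleen cells, and the intervals of Eomes (31.2% and 27.1%) overlap.

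Some genes of immature NK cells were higher in bone marrow. Of 12 listed genes 10 were measured, 4 were called higher and 0 lower, 9 had a ratio above 0, and the median was 0.90. Il7r and Tcf7 passed the 50 CPM minimum through the bone marrow alone. At a minimum of 20 CPM in any fasted, ad libitum or refed population of either tissue, 11 members entered. Of these, 9 were above 0, 2 were below and 4 were at least 2-fold higher, with a median of 0.81. Il7r, the interleukin 7 receptor chain of early lymphoid cells, stood at 136 against 34.4 CPM (1.84, 1.5 to 2.17). Ltb, the membrane lymphotoxin gene, stood at 428 against 130 CPM (1.68, 1.49 to 1.87). Emb, which encodes the adhesion protein embigin, reached 357 against 110 CPM (1.65, 1.44 to 1.86), and the surface antigen gene Thy1 273 against 99.5 CPM (1.41, 1.18 to 1.64). With the authors' clusters weighted equally none of these 4 was past the 2-fold line, with Il7r at 0.80, Ltb at 0.72, Emb at 0.77 and Thy1 at 0.90. Tcf7 came just short of the line at 89.7 against 42.8 CPM (0.99, 0.60 to 1.36; -0.06 with equal cluster weights), and Cd27 stood at 201 against 113 CPM (0.81, 0.55 to 1.06). Xcl1, a chemokine gene, differed less (329 against 250 CPM, 0.39, 0.19 to 0.58), and Cd7 was the measured member with a ratio below 0 (-0.09). Il7r was seen in 15.99% of bone marrow cells (9.85 to 24.0) and 2.78% of spleen cells (1.95 to 3.83) at 1500 UMIs.

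Genes of killing were lower in bone marrow where they differed by 2-fold. Of 12 measured effector genes 3 were called lower and 0 higher, with a median of -0.52. Gzma, the most abundant granzyme, stood at 4691 against 15198 CPM (-1.69, -1.74 to -1.65) and was found in 82.7% of bone marrow and 98.8% of spleen cells at 1500 UMIs. Gzmb stood at 187 against 864 CPM (-2.17, -2.42 to -1.94), and Prf1, which encodes perforin, at 81.5 against 310 CPM (-1.87, -2.24 to -1.51). Nkg7, a granule membrane gene, differed less (2275 against 3871 CPM, -0.77), and Ctsw and Srgn, the granule genes of cathepsin W and serglycin, had ratios of -0.13 and -0.14.

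Of 6 measured cytokine and chemokine genes, 4 were called lower and 1, Ltb, higher, with a median of -1.33. Ifng, the gene of interferon gamma, stood at 54.3 against 204 CPM (-1.82, -2.26 to -1.40). Ccl3 and Ccl4, inflammatory chemokines, stood at 174 against 587 CPM (-1.73, -1.99 to -1.48) and 198 against 623 CPM (-1.63, -1.87 to -1.39). In bone marrow 28.9% of the Ccl3 UMIs and 34.2% of the Ccl4 UMIs lay in 1 cell, and without each gene's highest cell the ratios were -2.17 and -2.12. Ccl5 was the most abundant of the group at 12361 against 25277 CPM (-1.03, -1.06 to -1.0). With the authors' clusters weighted equally Ccl5 and Ccl4 were no longer past the 2-fold line, at -0.51 and -0.73. With no minimum level, when members under 50 CPM such as Tnf and Flt3l entered, the median was 0.24.

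Receptors and transcription factors were mixed. Of 12 measured activating receptors and adaptors Slamf6, a self-ligand receptor of lymphocytes, was called higher (121 against 22.8 CPM, 2.18, 1.81 to 2.54) and its relative Slamf7 lower (42.1 against 93.1 CPM, -1.06, -1.56 to -0.58). The median was -0.35. Among 9 measured inhibitory receptor and Ly49 genes, 1 was called lower and the median was -0.55. This was Klra9 (234 against 529 CPM, -1.16, -1.39 to -0.94), and Klra4 and Klra8 had ratios of -0.92 and -0.82. Without cells of other types at the 0.2% setting Slamf7 (-0.96) and Klra9 (-0.94) fell under the 2-fold line. The Klra genes are near copies of each other, and how the authors' counting split reads between them is not given, so their values are uncertain. Of 13 measured NK transcription factors Zeb2 and Klf2 were called lower and Ikzf2 higher. Klf2, a factor of quiescence and of lymphocyte traffic, stood at 440 against 1152 CPM (-1.38, -1.54 to -1.22) and was seen in 44.5% of bone marrow and 78.9% of spleen cells at 1500 UMIs. Ikzf2, which encodes Helios, stood at 55.7 against 17.8 CPM (1.42, 0.92 to 1.89).

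Among 17 measured genes of homing and adhesion, S1pr5 was called lower and Cxcr3, a receptor for interferon-induced chemokines, higher (114 against 52.2 CPM, 1.06, 0.71 to 1.40). Cxcr3 fell under the 2-fold line without the cells of other types at the 0.2% setting (0.78). Ccr2, a receptor for monocyte chemokines, stood at 485 against 281 CPM (0.78, 0.61 to 0.94). Cxcr4, the receptor that holds cells in marrow, stood at 110 against 72.9 CPM (0.56, 0.22 to 0.90). With the authors' clusters weighted equally the ratio of Cxcr4 was -0.17. Of 11 measured genes of cytokine receptors and signalling, Il7r was called higher and Il12rb2, a chain of the interleukin 12 receptor, lower (17.7 against 59.5 CPM, -1.51, -2.18 to -0.85). Il2rb, the chain shared by the receptors of interleukin 2 and interleukin 15, had a ratio of 0.12 (-0.05 to 0.29).

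**Figure D3:**
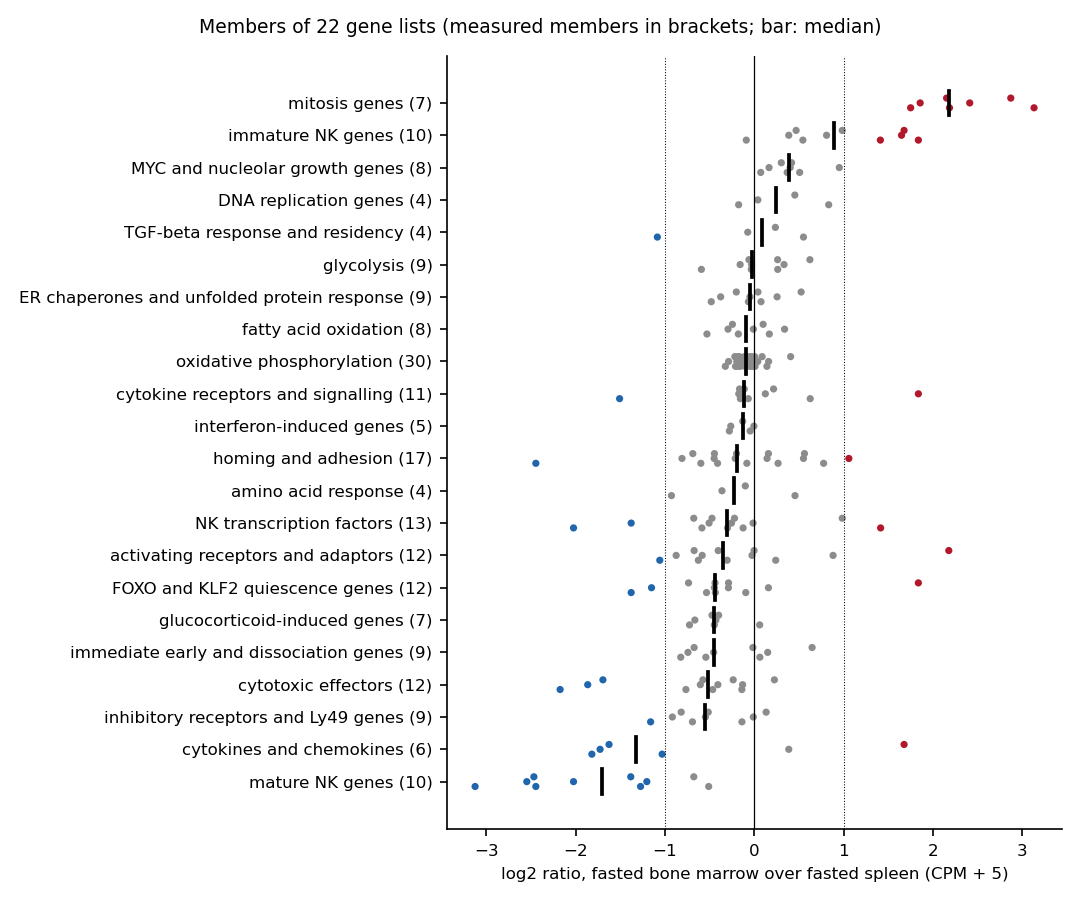
Log2 ratio of fasted bone marrow over fasted spleen for the measured members of each of the 22 gene lists, with the number measured in brackets; black bars are list medians, red and blue points lie past the dotted 2-fold lines. Mitosis genes (median 2.19) and mature NK genes (median -1.70) lie at the ends, while the median of all 2855 genes was -0.10.

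Genes of mitosis were higher in bone marrow, and a small number of cells carried them. Of 15 listed genes 7 were measured, all 7 were called higher, and the median was 2.19. Because all 7 passed the minimum through the bone marrow alone, that count and median describe the measured members and not the list: at a minimum of 20 CPM in any of the 6 populations all 15 members entered, all 15 were above 0 and the median was 1.94. Cenpf, a kinetochore gene, stood at 121 CPM in bone marrow and 9.35 in spleen (3.13, 2.73 to 3.52). Mki67, the marker of cycling cells, stood at 155 against 16.8 CPM (2.87, 2.51 to 3.22), and Top2a, the topoisomerase that unties sister chromatids, at 223 against 45.1 CPM (2.19, 1.91 to 2.46). Ube2c, an enzyme that tags mitotic cyclins for breakdown, stood at 163 against 26.5 CPM (2.41, 2.08 to 2.74). Birc5 and Nusap1, genes of the spindle, had ratios of 1.86 and 2.15, and Cdk1, the kinase that drives entry into mitosis, 1.75. Outside the list Cdca8, which encodes borealin of the same complex as Birc5, had a ratio of 2.21. The histone genes Hist1h1b, Hist1h3c and H2afx were called higher too (1.77, 1.82 and 1.77); histone genes are a family of near copies, and their split between members is uncertain.

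In bone marrow 10 of 136 cells (7.35%, 3.58 to 13.1) had UMIs of 5 or more mitosis genes, and these 10 cells held 738 of the 822 mitosis UMIs of the population (89.8%). In spleen 6 of 1391 cells (0.431%, 0.158 to 0.936) did, with 225 of 1045 mitosis UMIs (21.5%). A wider class, cells with UMIs of 5 or more genes of the mitosis and DNA replication lists together, was counted after thinning. It held 7.37% of bone marrow (3.34 to 13.7) and 0.519% of spleen cells (0.204 to 1.08) at 1500 UMIs, and 8.97% (4.01 to 16.8) and 2.20% (1.35 to 3.36) at 3000 UMIs. The 10 bone marrow cells with UMIs of 5 or more mitosis genes had a median of 9022 UMIs. Of these 10, 5 were among the 7 bone marrow cells with most UMIs. Without the 5% of cells with most UMIs in each population the mitosis median was 0.60, and the ratios were 2.38 for Cenpf, 2.30 for Mki67, 1.04 for Top2a, 0.24 for Ube2c and -0.23 for Birc5. The size of the mitosis difference therefore rested on few cells. The authors' cluster 10 held 6 bone marrow cells with 578 of the 822 mitosis UMIs, while its 5 fasted spleen cells had 2 such UMIs.

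The promoters of mitosis genes are known for 2 elements, the CCAAT box, bound by NF-Y, and the cell cycle homology region, TTTGAA, through which genes are held silent outside the late cell cycle. Genes of DNA replication more often use E2F sites. The RefSeq promoters (GRCm38.p6, 250 bases before to 50 after the start, the first start listed for a gene) of 4 genes of mitosis that were called higher are printed with a further gene of mitosis that holds neither element, a replication gene with E2F sites and a granzyme gene. They are read 5′ to 3′ on the gene's strand, and capitals mark these elements on either strand. The E2F words searched were TTTCCCGC and TTTGGCGC. Overlapping matches were all kept. The positions are chr1:189688037-189688336, minus strand for Cenpf, chr11:99024140-99024439, minus strand for Top2a, chr2:164769679-164769978, plus strand for Ube2c and chr4:124936868-124937167, minus strand for Cdca8. They are chr2:119618048-119618347, plus strand for Nusap1, chr1:20820263-20820562, minus strand for Mcm3 and chr14:56262285-56262584, minus strand for Gzmb.
Cenpf: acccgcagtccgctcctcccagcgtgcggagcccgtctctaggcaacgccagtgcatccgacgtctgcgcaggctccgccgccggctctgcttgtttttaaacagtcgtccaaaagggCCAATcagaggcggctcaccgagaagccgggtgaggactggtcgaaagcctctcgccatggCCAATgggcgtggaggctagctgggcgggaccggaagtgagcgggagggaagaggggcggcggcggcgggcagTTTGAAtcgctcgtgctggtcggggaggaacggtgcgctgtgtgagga
Top2a: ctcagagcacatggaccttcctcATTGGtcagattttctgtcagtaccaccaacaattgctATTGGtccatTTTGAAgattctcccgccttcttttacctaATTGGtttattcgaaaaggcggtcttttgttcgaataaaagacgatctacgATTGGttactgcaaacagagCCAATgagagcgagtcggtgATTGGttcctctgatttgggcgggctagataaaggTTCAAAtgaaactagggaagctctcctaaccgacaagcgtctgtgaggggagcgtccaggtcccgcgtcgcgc
Ube2c: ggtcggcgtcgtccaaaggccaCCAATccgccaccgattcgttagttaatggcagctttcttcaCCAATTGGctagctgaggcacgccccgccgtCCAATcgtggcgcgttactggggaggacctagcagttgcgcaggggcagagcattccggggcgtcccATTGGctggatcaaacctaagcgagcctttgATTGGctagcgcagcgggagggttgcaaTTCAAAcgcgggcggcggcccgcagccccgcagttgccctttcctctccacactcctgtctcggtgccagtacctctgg
Cdca8: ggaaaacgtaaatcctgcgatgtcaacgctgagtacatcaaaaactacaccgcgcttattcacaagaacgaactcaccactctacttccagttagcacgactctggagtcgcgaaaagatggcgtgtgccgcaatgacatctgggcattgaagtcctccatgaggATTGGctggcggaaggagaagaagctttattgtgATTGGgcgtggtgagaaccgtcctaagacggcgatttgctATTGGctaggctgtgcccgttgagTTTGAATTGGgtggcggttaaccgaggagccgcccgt
Nusap1: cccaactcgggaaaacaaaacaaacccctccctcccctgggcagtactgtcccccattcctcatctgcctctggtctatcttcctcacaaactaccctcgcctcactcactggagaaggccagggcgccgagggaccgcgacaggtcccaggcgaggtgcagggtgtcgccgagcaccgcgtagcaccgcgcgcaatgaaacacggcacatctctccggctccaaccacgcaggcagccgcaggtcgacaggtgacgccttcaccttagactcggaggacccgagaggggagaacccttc
Mcm3: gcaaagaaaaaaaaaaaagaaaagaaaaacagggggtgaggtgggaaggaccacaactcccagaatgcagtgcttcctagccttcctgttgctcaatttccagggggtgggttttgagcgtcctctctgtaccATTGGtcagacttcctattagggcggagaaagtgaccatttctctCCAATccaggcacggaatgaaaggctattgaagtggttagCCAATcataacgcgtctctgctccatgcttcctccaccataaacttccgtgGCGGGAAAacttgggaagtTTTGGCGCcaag
Gzmb: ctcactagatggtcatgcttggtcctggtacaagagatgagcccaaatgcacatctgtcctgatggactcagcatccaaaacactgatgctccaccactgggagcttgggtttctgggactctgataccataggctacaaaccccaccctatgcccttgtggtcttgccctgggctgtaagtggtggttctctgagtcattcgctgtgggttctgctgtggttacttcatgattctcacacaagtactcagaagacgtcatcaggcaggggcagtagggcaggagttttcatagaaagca

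Cenpf held 2 CCAAT boxes and 1 cell cycle homology word, Top2a 6 and 2, Ube2c 6 and 1, and Cdca8 4 and 1. Nusap1 and Gzmb held no match to any of these words, and Mcm3 held 3 CCAAT boxes and 2 E2F words. Of the 15 mitosis genes 12 had a promoter in the table, of which 10 (83.3%) held a CCAAT box, 7 (58.3%) a cell cycle homology word and 0 an E2F word. Of 20 DNA replication genes 17 had one, of which 11 (64.7%) held a CCAAT box, 2 (11.8%) a cell cycle homology word and 6 (35.3%) an E2F word. Over all 27025 genes with a promoter of this length the shares were 37.9%, 18.1% and 1.63%. Of the 29 genes that kept a higher call 20 had a promoter, and 13 of these held a CCAAT box and 10 a cell cycle homology word. Of the 40 that kept a lower call 32 had one, with 10 and 3. A T-box word, AGGTGTGA, was in 1.27% of all promoters and in none of the 11 mature NK promoters in the table. A match says that the letters are present and nothing of what binds there.

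Genes of DNA replication did not show the difference that mitosis genes showed. Of 20 listed genes 4 reached 50 CPM and 0 were called, where 1.75% of all measured genes were called higher and 1.54% lower. A count of 0 among 4 is near those shares. Pcna, the sliding clamp, stood at 70.6 against 80.4 CPM (-0.17, -0.59 to 0.22), Mcm6 and Mcm7, helicase subunits, had ratios of 0.04 (-0.42 to 0.48) and 0.45 (-0.04 to 0.92), and Dut, which clears dUTP, stood at 101 against 54.2 CPM (0.83, 0.47 to 1.19). Among members under the minimum, Mcm5 stood at 17.7 against 20.0042 CPM (-0.14, -0.84 to 0.54) and Mcm3 at 46.2 against 23.7 CPM (0.83, 0.31 to 1.33). Rrm2, a subunit of ribonucleotide reductase, had 40.8 against 10.5 CPM (1.56, 1.00 to 2.10).

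In the other feeding states the replication genes were higher in bone marrow. Over the 18 members that reached 20 CPM in any of the 6 populations, 13 were above 0 under fasting with a median of 0.47, and 3 were at a log2 ratio of 1 or more. All 18 were above 0 in the ad libitum pair, with a median of 1.39 and 15 at 1 or more, and all 18 in the refed pair, with a median of 1.14 and 11 at 1 or more. The mitosis genes had medians of 1.94, 2.07 and 1.99 in the order fasted, ad libitum and refed, but the fasted value rested on few cells. The 5% of cells with most UMIs held 70.3% of the mitosis UMIs in the fasted bone marrow, 33.5% in the ad libitum and 42.2% in the refed one. Without such cells in each fasted population the median of the 7 measured mitosis genes was 0.60. That value is not given for the other pairs, so whether the mitosis difference was alike between feeding states was not tested. Mcm5 stood at 89.8 against 32.1 CPM in the ad libitum pair (1.35) and at 80.3 against 38 CPM in the refed pair (0.99), and the fasted ratio differed from the ad libitum one by -1.5 (-2.17 to -0.82). Dut had ratios of 1.86 and 1.60 there, and its fasted ratio differed from the ad libitum one by -1.02 (-1.39 to -0.65). Cells with 5 or more mitosis genes were 146 of 575 (25.4%) in the ad libitum and 68 of 337 (20.2%) in the refed bone marrow, and 49 of 1804 (2.72%) and 31 of 1476 (2.10%) in the spleens; the median depth was 7137 and 7493 UMIs in these bone marrow populations against 4782.5 in the fasted one, so the shares were taken at unequal depth.

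None of the 8 measured MYC and nucleolar genes, 30 oxidative phosphorylation genes, 9 glycolysis genes, 8 fatty acid oxidation genes, 4 amino acid response genes and 9 chaperone genes was called, where 1.75% of all measured genes were called higher and 1.54% lower. Myc itself stood at 50.3 against 23.6 CPM (0.95, 0.45 to 1.43), and the nucleolar gene Npm1 at 955 against 721 CPM (0.40, 0.28 to 0.52). The medians were 0.39 for MYC and nucleolar growth, -0.09 for oxidative phosphorylation, -0.03 for glycolysis and -0.09 for fatty acid oxidation. The last 3 took the opposite sign, at 0.05, 0.11 and 0.04, when totals left out ribosomal protein and mitochondrial genes. Cpt1a, the gate of fatty acids into mitochondria, stood at 40.8 against 42.8 CPM (-0.06, -0.59 to 0.44). In the ad libitum and refed pairs 27 and 26 of the 30 oxidative phosphorylation genes were above 0 against 8 in the fasted pair. Of all 2855 measured genes 1084 were above 0 in the fasted pair. The same count is not given for the other pairs, so the part of a shift over all genes was not tested. The glycolysis medians over the same 9 genes were 0.54 in the ad libitum and 0.37 in the refed pair. Gapdh, a glycolytic enzyme gene, had ratios of 0.33 in the fasted, 0.84 in the ad libitum and 0.68 in the refed pair. The share of ribosomal protein and mitochondrial UMIs was 31.6% and 34.0% in these bone marrow populations and 25.5% and 27.7% in the spleens, a gap of like size to that of the fasted pair, and its part in these medians was not tested.

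Of 7 measured glucocorticoid-induced genes 0 were called, 6 had a ratio below 0 and the median was -0.45, against 1771 of 2855 below 0 and a median of -0.10 for all genes. Tsc22d3, the glucocorticoid-induced leucine zipper, stood at 193 against 256 CPM (-0.40, -0.65 to -0.15). Of 12 genes of FOXO and KLF2 quiescence Klf2 and Klf3 were called lower and Il7r higher, and the median was -0.44. Txnip, which restrains glucose uptake, stood at 401 against 544 CPM (-0.44, -0.61 to -0.26), and Pik3ip1, an inhibitor of PI3 kinase, at 73.4 against 78.7 CPM (-0.10, -0.50 to 0.29). Immediate early and dissociation genes had a median of -0.45 with none of 9 called, Junb at -0.82 and Fosb at 0.65. Of the 5 measured interferon-induced genes 0 were called (median -0.13). Of all measured genes 1.75% were called higher and 1.54% lower, and counts of 0 among 7, 9 and 5 genes are near those shares. Of 4 measured genes of the TGF-beta response and residency Rgs1, a brake on chemokine receptor signals, was called lower (117 against 254 CPM, -1.09, -1.40 to -0.78). Cd69, which blocks egress, had a ratio of 0.55 (0.25 to 0.84), or -0.27 with clusters weighted equally.

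The direction of the calls was mostly shared with the other feeding states. Of the 50 higher calls 49 were above 0 in the ad libitum pair and 47 in the refed pair, and 42 and 36 were at least 2-fold higher there. Of the 44 lower calls 43 and 44 were below 0, and 30 and 28 were at least 2-fold lower. The 50 CPM minimum was not applied to these genes in the other pairs, so some were not measured there. The shares of all genes above and below 0 in those pairs are not given. With that minimum, 4.32% of 2895 measured genes were called higher and 1.97% lower in the ad libitum pair, and 2.7% and 1.37% of 2781 in the refed pair. These shares are therefore not on the same basis as the counts. The counts include the genes that single cells carried. Of the genes that kept their call, 23 of 29 higher and 25 of 40 lower genes were past the 2-fold line in the same direction in both other pairs. The 50 CPM minimum was not applied there, and Slamf6, for 1, stood at 31.6 and 43.4 CPM in the ad libitum and refed bone marrow.

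Some genes differed in size between the feeding states. Il7r stood at 20.6 against 13.4 CPM in the ad libitum pair and at 30.4 against 12.8 CPM in the refed pair, and its fasted ratio was above the ad libitum one by 1.36 (0.93 to 1.8). The difference from the ad libitum ratio was 0.95 (0.52 to 1.38) for Cenpf, 0.79 (0.33 to 1.24) for Slamf6 and 0.74 (0.52 to 0.96) for Ltb, and Ltb differed from its refed ratio by 0.09 (-0.13 to 0.32). Gzmb had ratios of -1.28 in the ad libitum and -1.65 in the refed pair, and the fasted ratio differed from the ad libitum one by -0.90 (-1.14 to -0.65). Klrg1 had -2.05 and -2.49 there, a difference from ad libitum of -1.08 (-1.81 to -0.35). S1pr5 (-2.36 and -2.58), Zeb2 (-1.79 and -2.11) and Klf2 (-1.44 and -1.19) had fasted ratios whose difference from the ad libitum ones had an interval that held 0. The mature NK medians were -1.74 and -2.08 over the same 10 genes. The immature NK medians were 0.43 and 0.81. The intervals hold counting error only, and with 1 sample per population no difference between feeding states was tested.

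**Figure D4:**
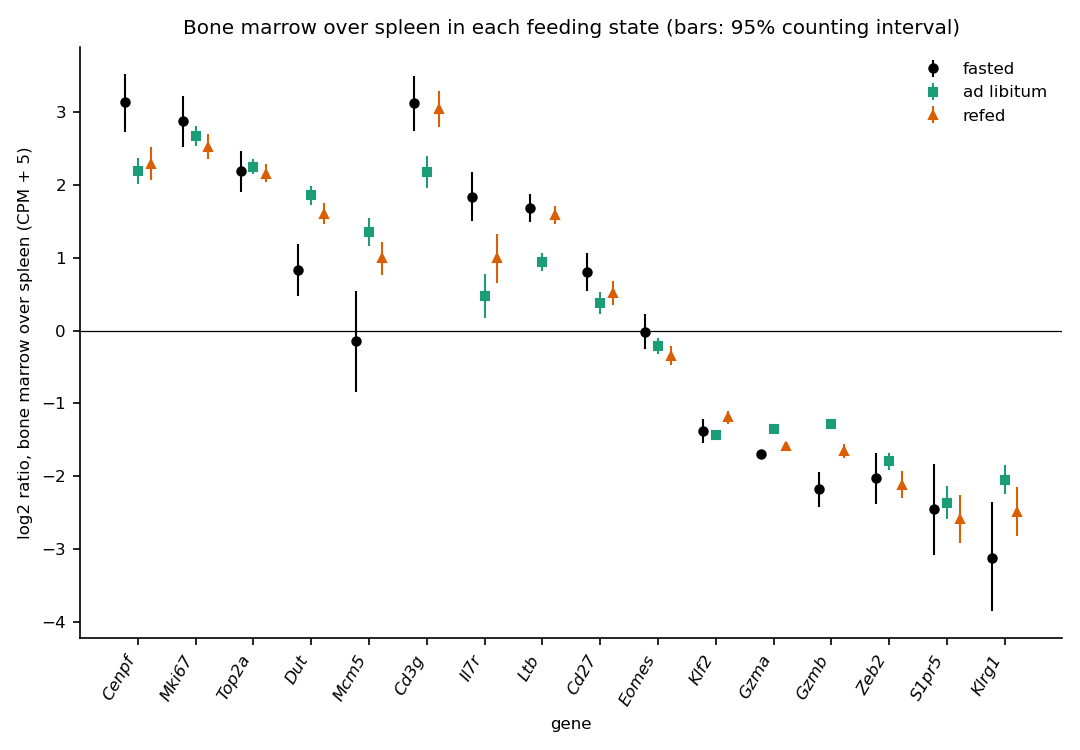
Log2 ratio of bone marrow over spleen for 16 genes in the fasted (black), ad libitum (green) and refed (orange) pairs, with 95% counting intervals as bars. Mcm5 (-0.14 fasted, 1.35 ad libitum) and Il7r (1.84 fasted, 0.47 ad libitum) lie apart between the pairs, while S1pr5 (-2.45 and -2.36) and Top2a (2.19 and 2.25) do not.

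The highest ratios of all came from 2 cells that met the rule for markers of another cell type. S100a9 and S100a8, the calprotectin genes of neutrophils, stood at 4634 against 18.1 CPM (7.65) and 3233 against 17.0 CPM (7.2), and Camp, Ngp and Lcn2, genes of neutrophil granules, at 7.12, 6.47 and 6.28. In bone marrow a single cell of 24129 UMIs held 99.5% of the S100a9 UMIs and 99.6% of the Camp UMIs, and nearly all of those of the other 3. Without cells of other types S100a9 had a ratio of 0.33 and Camp of 0.18, and the neutrophil markers summed to 52.5 CPM in place of 11058. Lyz2, the lysozyme of myeloid cells, stood at 774 against 7.29 CPM (5.99). Its highest cell held 52.1% of its UMIs and its ratio without that cell was 4.99, as the neutrophil-marker cell carried nearly all of the rest. That highest cell, of 4895 UMIs, was the cell with monocyte or macrophage markers. Without the 7 cells of other types in each population the ratio was -0.12. Both cells also held NK transcripts, with NK markers at 4766 CPM in the neutrophil-marker cell and 14709 CPM in the monocyte- or macrophage-marker cell, and whether they are droplets with more than 1 cell was not tested. Cxcl10, an interferon-induced chemokine gene, had 91.4% of its UMIs in 1 bone marrow cell and moved from 1.57 to -1.21 without it. A cell was counted as of another type when at least 4 markers of 1 list had a UMI and the list took at least 0.5% of its UMIs, which removed 7 cells of each population.

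**Figure D5:**
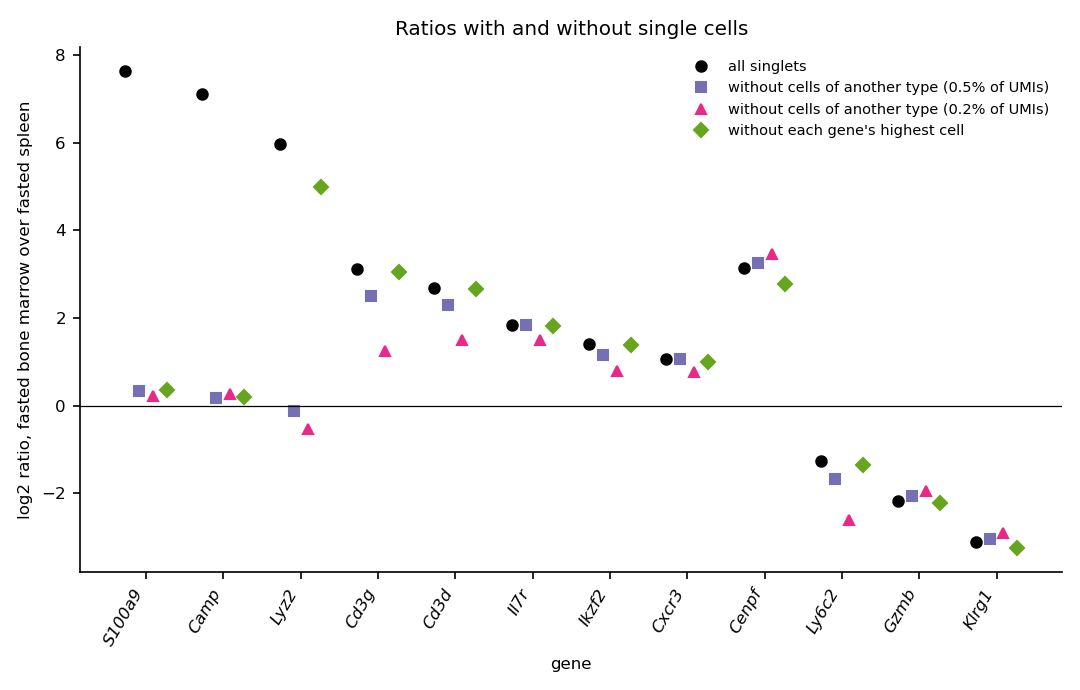
Log2 ratio of fasted bone marrow over fasted spleen for 12 genes with all singlets (black circles), without cells of another type at 0.5% (purple squares) and 0.2% (pink triangles) of their UMIs, and without each gene's highest cell (green diamonds). S100a9 drops from 7.65 to 0.33, Lyz2 to -0.12 without the cells of another type, Cd3g to 1.26 at the 0.2% setting, and Klrg1 stays between -3.25 and -2.92.

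Cells with T cell markers were a larger part of the marrow. At the 0.2% setting 17 of 136 bone marrow cells (12.5%, 7.45 to 19.3) and 9 of 1391 spleen cells (0.647%, 0.296 to 1.22) met the rule for T cell markers. The shares were 9.91% and 1.27% in the ad libitum and 15.7% and 0.745% in the refed bone marrow and spleen. Cd3g and Cd3d, subunits of the CD3 complex, stood at 136 against 11.2 CPM (3.12, 2.73 to 3.49) and 186 against 24.7 CPM (2.69, 2.36 to 3.0) over all singlets. Without cells of another type at that setting their ratios were 1.26 and 1.49, lower by construction since both genes are among the markers that chose the cells. The 17 cells of the marrow also held NK transcripts: their NK markers summed to 5075 CPM against 14834 CPM in the other 117 bone marrow cells, with Ncr1 at 301 against 638 CPM, Klrb1c at 344 against 660 CPM and Eomes at 120.4 against 245 CPM. Cd4, Cd8a, Cd8b1 and Cd6 were at 0 in them. Whether such cells are T cells, innate T-like cells, NK cells with CD3 transcripts or droplets with more than 1 cell was not tested, and they are named here only by the rule.

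The cells with T cell markers bore on several of the differences. Ly6c2, a surface antigen of mature NK cells and of memory T cells, stood at 1032 CPM in these 17 bone marrow cells and at 103 CPM in the other 117. Over all singlets its level was 270 against 661 CPM (-1.27, -1.48 to -1.07), and without cells of other types at the 0.2% setting its ratio was -2.62. Il7r stood at 473 CPM in the 17 cells and at 76.2 CPM in the others, and its ratio at that setting was 1.49. Ikzf2 moved from 1.42 to 0.79. Klrg1, Gzmb and Cenpf, in contrast, were at -2.92, -1.96 and 3.46 at that setting. The mature NK median was -2.09, the immature NK median 0.87 and the mitosis median 2.37.

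Cells of the authors' clusters were spread unequally over the tissues. Cluster 2 held 54 of 136 bone marrow and 133 of 1391 spleen cells, cluster 7 35 and 105, and cluster 6 21 and 55, while clusters 1, 3 and 4 held 341, 355 and 200 spleen cells against 9, 6 and 1. Within cluster 2 the mature NK median was -1.40, with Zeb2 at -2.27 (-3.05 to -1.54) and Gzma at -1.74 (-1.85 to -1.64). Within cluster 7 it was -1.16, with Gzmb at -2.18 (-2.98 to -1.47). Within cluster 6 it was -0.16, and Gzmb and Zeb2 had intervals that held 0 (-0.64 to 0.87 and -0.87 to 0.71). Other effector and cytokine genes were lower there, with Gzma at -0.86, Prf1 at -1.93, Ifng at -1.45 and Ccl3 at -2.15. The intervals of these genes left out 0. In this cluster 9 of the 12 measured effector genes were below 0 and 3 above, with a median of -0.36. Of the 6 measured cytokine and chemokine genes 4 were below 0 and 2 above, with a median of -0.58. The immature NK medians in the same order were 0.50, 0.34 and 0.32. The 7 measured mitosis genes had medians of -0.49 in cluster 2, 0.56 in cluster 7 and 0.95 in cluster 6. In cluster 2 the bone marrow cells also held 92 of the 100 Cd3g and 112 of the 137 Cd3d UMIs of their population, with Cd3g at a ratio of 2.27 (1.72 to 2.83), and the part of cells with T cell markers in the differences within this cluster was not tested. With the 6 clusters that had at least 5 cells in both populations weighted equally, the mature NK median was -1.37 and the immature NK median 0.47, with 131 bone marrow and 994 spleen cells used. Under this weighting Itgam (-0.79), Gzma (-0.91), Slamf7 (-0.53), Klra9 (-0.66), Il12rb2 (-0.92), Klf3 (-0.97), Ikzf2 (0.54) and Cxcr3 (0.86) were no longer past the 2-fold line. Nor were Irf8, the immature NK genes and the chemokines for which this is given above. How the clusters were made is not stated in the labels, so cells of 1 cluster may be alike by construction in the genes compared.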

How the data were processed

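Per the labels' protocol, the deposited counts of UMIs per cell and gene were built by the authors with seqc, and mm10 is the build in the submitters' processing notes. The sources used here do not state how the authors assigned hashtags or clusters, both deposited as labels. The matrix held 13118 cells and 16800 gene columns, with 11 repeated symbols summed to leave 16789. Hashtag doublets (5606 cells) and 33 cells without a classification were left out, doublets within a hashtag cannot be seen, and no doublet caller was run. Sums per population were scaled by total UMIs, with the median log2 ratio given for each of 22 gene lists. Binomial 95% intervals of ratios cover counting error only. Clopper-Pearson intervals of shares cover the sampling of cells taken as independent, and not the spread between mice. After thinning they were computed from expected numbers of cells, which need not be whole, so they are approximate there. Shares after thinning are exact expected values over all draws of UMIs, except that of cells with 5 or more mitosis and replication genes, a mean over random draws. Computation was checked on simulated counts. TMM factors came from edgeR 4.0.16, and the other steps were run in Python 3.11.15 with numpy 2.4.6 and scipy 1.17.1.

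The members, gene lists and markers were chosen with earlier results of these data known. Named genes were the 14 highest and the 14 lowest ratios among genes that kept their call, leaving out antigen receptor and globin genes, genes of ribosomes or mitochondrial DNA, and models without a gene name, then up to 4 members of each list with the largest ratios whose interval left out 0, a fixed set of NK genes, and the 6 highest of the genes that lost their call. Other genes that lost their call, other members of the lists and further genes in the text were named after their values were seen. There are 17 alternative settings, of which 16 were planned and 1 was added after the data were seen.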

Additional observations from a re-analysis of the deposited data

How the results depend on the processing

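No paired analysis was possible because each population is 1 sample with 1 hashtag. The 136 bone marrow cells limit every ratio: 50 CPM there rests on few UMIs, and mice, sort and hashtag cannot be told apart from tissue. The causes of the changes below were not tested.

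The 50 higher calls became 96 with totals without ribosomal protein and mitochondrial genes, 26 without each gene's highest cell, 28 without that cell and without cells of another type at 0.2% (a setting chosen after seeing the data), 78 with equal cluster weights and 29 without the 5% of cells with most UMIs. With minimum levels of 20 and 100 CPM and with none they became 118, 30 and 228. The 44 lower calls became 102 with equal cluster weights, 27 with a pseudocount of 20 CPM, 87 with a minimum of 20 CPM and 188 with none.

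The list medians below moved outside the range between the medians of their members' lower and upper interval bounds. That range is not a counting interval of the median itself, which was not computed. Mature NK genes (-1.70) went to -1.37 with equal cluster weights and -2.25 in the added setting, and immature NK genes (0.90) to 0.47 with equal cluster weights. Activating receptors (-0.35) went to -0.21 without ribosomal protein and mitochondrial totals and -0.22 without cells of another type at 0.2%. Inhibitory receptors (-0.55) went to -0.40 with those totals, -0.32 with equal cluster weights and -0.41 with no minimum. Cytokines and chemokines (-1.33) went to -1.19 with those totals, -1.49 without each gene's highest cell, -0.62 with equal cluster weights, -1.03 at a minimum of 20 CPM, 0.24 with no minimum, -1.09 without the deepest cells and -1.48 in the added setting. Mitosis genes (2.19) went to 1.58 with the same weight per cell, 1.49 after thinning, 1.90 with a pseudocount of 20 CPM and 0.60 without the deepest cells. DNA replication genes (0.25) went to 0.83 at a minimum of 100 CPM. Immediate early genes (-0.45) went to -0.15 with equal cluster weights and -0.23 at a minimum of 100 CPM. No interferon-induced gene was left at that minimum.

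Among single genes the sign changed without the deepest cells for Birc5 (-0.23), Hist1h3c (-0.035) and Hist1h1b (-0.089), and with equal cluster weights for Cxcr4 (-0.17), Tcf7 (-0.057), Cd69 (-0.27) and Cox4i1 (0.044).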
